A study of Rattus norvegicus with 12 samples.

Results

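Of the 21071 rows in the gene table of a rat nucleus pulposus cell RNA sequencing experiment, 606 were of the type miRNA, and 47 of these held at least 120 counts in sum over the 12 libraries. These 47 microRNA hairpin rows are described here. They were chosen by their summed counts, Mir221 included. The minimum comes to 30 counts per group on average. Of the members, 32 reached 30 counts in each of the 4 groups and 15 did not, so the latter were kept by the groups in which they were higher. The counts of members below are therefore a description of these rows and not of rat microRNA genes in general.

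Nucleus pulposus cells fill the gelatinous centre of the disc between vertebrae. The 12 libraries of total RNA fall into 4 groups of 3, and the cells of every group received exosomes, small vesicles shed by cells, at 50 µg/mL. The NPPC-Exo group had exosomes from nucleus pulposus progenitor cells, and the miR-Exo group had exosomes from progenitors made to overexpress miR-221-3p. The other groups had the same exosomes together with erastin, an inhibitor of cystine import that triggers iron-dependent cell death, and are called erastin under NPPC-Exo and erastin under miR-Exo. The labels give erastin as 0.1 to 5 µM for 48 h without a dose for each library, and give neither rat strain nor age. Nor do they state if replicate libraries stem from different cultures or animals, so p-values reflect library-to-library spread that may be technical. No exosome-free group is analysed here.

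A microRNA gene is transcribed as a long primary RNA, often inside an intron of another gene. The nuclear enzyme Drosha, with its partner Dgcr8, cuts out a hairpin, Dicer cuts the hairpin to a duplex, and a mature strand is loaded on an Argonaute protein. The loaded strand pairs with messenger RNAs mostly through its seed, the bases 2 to 8 from the 5′ end, and lowers their output. Ordinary RNA libraries, such as these, do not measure that mature strand. A read at a hairpin row may come from RNA that spans the hairpin, such as the primary transcript, the hairpin itself or the RNA of a gene around it. It may also come from a similar sequence elsewhere in the genome, as the sources used here do not give the rules of counting.

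A rat microRNA name was present for 16 of the 47 members, while 31 carry only a clone name or an identifier. All 16 were found in RefSeq's microRNA table for the GRCr8 assembly, 14 by symbol and 2, Mir7a1 and rno-mir-3542-1, by a synonym. Together they encode 26 mature sequences with 26 different seeds. Members without a name have no sequence printed here. For the main named ones, 1 mature strand each is given 5′ to 3′ with the seed in capitals, starting with the overexpressed miR-221-3p.
rno-miR-221-3p: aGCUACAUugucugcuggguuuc
rno-miR-222-3p: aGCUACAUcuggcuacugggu
rno-miR-143-3p: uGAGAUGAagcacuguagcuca
rno-miR-145-5p: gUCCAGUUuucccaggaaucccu
rno-miR-21-5p: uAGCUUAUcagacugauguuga
rno-miR-22-3p: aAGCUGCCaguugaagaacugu
rno-miR-27b-3p: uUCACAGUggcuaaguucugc
rno-miR-3074: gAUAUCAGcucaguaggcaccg
rno-miR-24-1-5p: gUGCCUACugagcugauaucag
rno-miR-675-5p: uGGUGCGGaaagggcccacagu
rno-miR-3064-3p: uUUGCCACacugcaacaccuuaca
rno-miR-568: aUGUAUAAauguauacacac
Mir222 is not a member, and its sequence is shown because its seed is the one of miR-221-3p. Mir24-1 is not a member either, and miR-24-1-5p is shown because its hairpin overlaps Mir3074 by 68 bp on the opposite strand in RefSeq.

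The hairpin rows were short, from 53 to 145 bp, and took a small part of the data. Library totals ran from 54616827 to 68865720 counts, and the members received from 0.00938 to 0.0125% of them. The totals of the 47 members ranged from 122 to 22088 with a median of 392, and came to 80041 counts, against 6992 counts in the other 559 miRNA rows, whose median total was 7. The last rows inside the minimum were Mir27b with 126 counts, Mir24-2 with 122 and AABR07021596.4 with 122, and the rows just outside were AABR07047044.1 with 111, Mirlet7d with 110 and AC120692.1 with 107. The cells expressed cartilage-like genes of the disc core, with mean levels in CPM (counts scaled to library size) of 6390 for Acan, 33.3 for Sox9 and 116 for Pax1 in the NPPC-Exo group. With erastin under NPPC-Exo these means were 912, 12.8 and 28. Other markers of the list stood higher there, Cd24 at 15.9 against 8.82 CPM, Cdh2 at 28.9 against 24, Foxf1 at 2.88 against 1.26 and Ca12 at 1.28 against 0.811, differences that were not tested here. Krt18 stayed near 0, at 0 to 0.12 CPM in the group means, and Krt8 stood at 2.85 to 5.09 CPM. Krt19, Tbxt and Shh were also on the list but had no row under these names, so they are not counted as measured. Of the nucleus pulposus list 11 of 12 measured markers were at 1 CPM or more, and their summed level, most of it from Acan and Col2a1, was 7330 to 8350 CPM with NPPC-Exo, 7340 to 8820 with miR-Exo, 1310 to 1450 with erastin under NPPC-Exo and 1130 to 1190 with erastin under miR-Exo. The fibroblast and annulus list, which includes the collagen gene Col3a1, had 5 of 6 rows at 1 CPM or more and moved the same way, from 47800 to 55300 CPM with NPPC-Exo, 47500 to 56600 with miR-Exo, 19900 to 23300 with erastin under NPPC-Exo and 11400 to 15300 with erastin under miR-Exo. Marker lists of macrophages, endothelium, muscle, blood and nerve summed to at most 5.74 CPM in any library. The part of these shifts in the hairpin results was not tested, and in bulk RNA fewer cells of a type and less RNA per cell cannot be told apart.

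The question of the exosome comparison is what miR-221-3p-loaded exosomes change in recipient cells, and the hairpin row of the overexpressed microRNA matched the label in every library. Reads at Mir221 numbered 17, 17 and 17 in the plain NPPC-Exo group, against 24, 21 and 22 with erastin under NPPC-Exo. They numbered 1686, 1524 and 1752 in the miR-Exo libraries and 1651, 1629 and 1578 with erastin under miR-Exo. No library of an NPPC-Exo group came near a library of a miR-Exo group, and the groups within each kind of exosome lay close together. RNA carried in by the exosomes and the recipient cells' own transcript cannot be told apart in these reads, and their source was not tested. Mir221 made up 0.271 to 0.436% of all member counts in the NPPC-Exo libraries and 21.5 to 23% in the miR-Exo libraries. The other 46 members together had 5910 to 6250 unscaled counts with NPPC-Exo and 5577 to 6192 with miR-Exo. With erastin they had 5486 to 6141 under NPPC-Exo and 5492 to 5673 under miR-Exo. Scaling factors of the libraries ran from 0.877 to 1.15, so these unscaled totals do not compare levels between groups. By length, Mir221 stood at rank 2 of the 47 in both miR-Exo groups, at a mean of 226 FPKM, the deposited length-corrected unit, without erastin, behind AC128792.1 at 266 FPKM. In the NPPC-Exo group it stood at rank 37 with 2.3 FPKM. The NPPC-Exo groups held 51 and 67 of its 9938 counts, each above 30, so the total by which Mir221 was chosen rests mostly on the miR-Exo groups.

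The next hairpin on the same strand is Mir222, 458 bp away, the partner of Mir221 in one primary transcript in mammals. Its row had 2, 3 and 3 counts with NPPC-Exo, 3, 1 and 2 with miR-Exo, 1, 1 and 1 with erastin under NPPC-Exo and 1, 2 and 1 with erastin under miR-Exo. All libraries were thus at or below 3 counts, the floor used here, which corresponds to 0.044 to 0.0565 CPM, and no fold change is given for Mir222. Floors cover counting error only. Where Mir222 had 1 count the deposited FPKM was 0.01 to 0.05, against 0.34 to 0.36 at 3 counts. A count of 1 here may thus stand for less than 1 read. Between the groups with and without erastin, Mir221 changed little: the log2 fold change was 0.17 ± 0.16 (SE) under NPPC-Exo and −0.19 ± 0.08 under miR-Exo. Neither passed the test, with adjusted p = 0.639 and 0.0731 (edgeR's quasi-likelihood test, 3 libraries a group, Benjamini-Hochberg over 15650 genes, threshold 0.05, as for every adjusted p below). The second value was on the other side of the threshold, at −0.21 with adjusted p = 0.0407, without library 1 of erastin under NPPC-Exo.

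**Figure D1:**
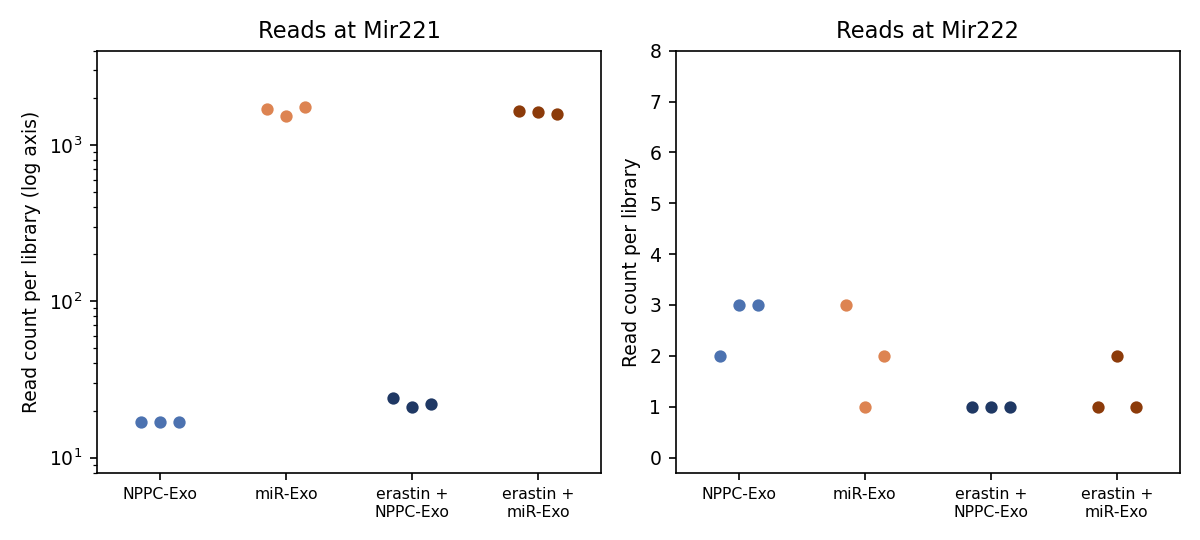
Read counts at Mir221 (left, log axis) and Mir222 (right, linear axis) in each of the 12 libraries, 3 points per group. Mir221 lies at 17 to 24 counts in the NPPC-Exo groups and 1524 to 1752 in the miR-Exo groups, while Mir222 lies at 1 to 3 counts in all 4.

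Apart from Mir221, few hairpin rows differed by the kind of exosome. Without erastin 1 member of 47 was higher with miR-Exo, Mir221, and 3 were lower, while 10.7% of all genes tested were called in this comparison, 4.15% higher and 6.52% lower. With erastin 1 was higher, again Mir221, and 2 were lower, where 31.3% of all genes were called, 15.6% higher and 15.8% lower. The median log2 fold change over the members was −0.12 without erastin and −0.05 with it, beside 0 and 0.01 over all genes. When counts were scaled by library size alone, the median of all genes moved to 0.08 and 0.12 and the share of higher among the called genes from 38.9 to 68.7% and from 49.7 to 68.6%, and members called went to 2 higher and 3 lower without erastin and remained at 1 and 2 in number with it.

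Of the 3 members lower with miR-Exo without erastin, 2 lay inside Ddx5, the gene of an RNA helicase that assists Drosha. Its row encloses them on the same strand, 387 bp apart: Mir3064 and ENSRNOG00000045884, a hairpin without a symbol in the table. ENSRNOG00000045884 stood at 7.93, 6.42 and 6.02 CPM with NPPC-Exo and at 2.98, 2.94 and 2.98 with miR-Exo. With erastin it stood at 4.16, 3.78 and 3 CPM under NPPC-Exo and at 3.94, 3.64 and 2.89 under miR-Exo. The NPPC-Exo libraries without erastin were the highest, above every library of the other 3 groups. Mir3064 stood at 6.67, 6.08 and 5.08 CPM with NPPC-Exo, at 2.6, 2.68 and 2.98 with miR-Exo, at 3.46, 3.31 and 2.41 with erastin under NPPC-Exo and at 3.21, 2.83 and 2.07 with erastin under miR-Exo. Its libraries were arranged in the same way, with the NPPC-Exo libraries without erastin apart from the rest.

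With miR-Exo and no erastin, ENSRNOG00000045884 fell by 1.19 ± 0.17 on the log2 scale (adjusted p = 0.000837) and Mir3064 by 1.11 ± 0.20 (adjusted p = 0.00358). With erastin under NPPC-Exo they fell by 0.90 ± 0.17 (adjusted p = 0.000812) and 0.96 ± 0.20 (adjusted p = 0.00144). Under miR-Exo erastin brought no called change, at 0.23 ± 0.17 and −0.03 ± 0.20. The Ddx5 row itself, with 619 to 716 CPM in the 12 libraries, was 0.12 ± 0.04 with miR-Exo (adjusted p = 0.101) and rose by 0.16 ± 0.04 with erastin under NPPC-Exo (adjusted p = 0.00665). So both hairpins fell where the gene around them rose slightly or was not called, and the difference between hairpin and gene was not tested. The hairpins held 0.61 and 0.521% as many counts as the Ddx5 row.

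**Figure D2:**
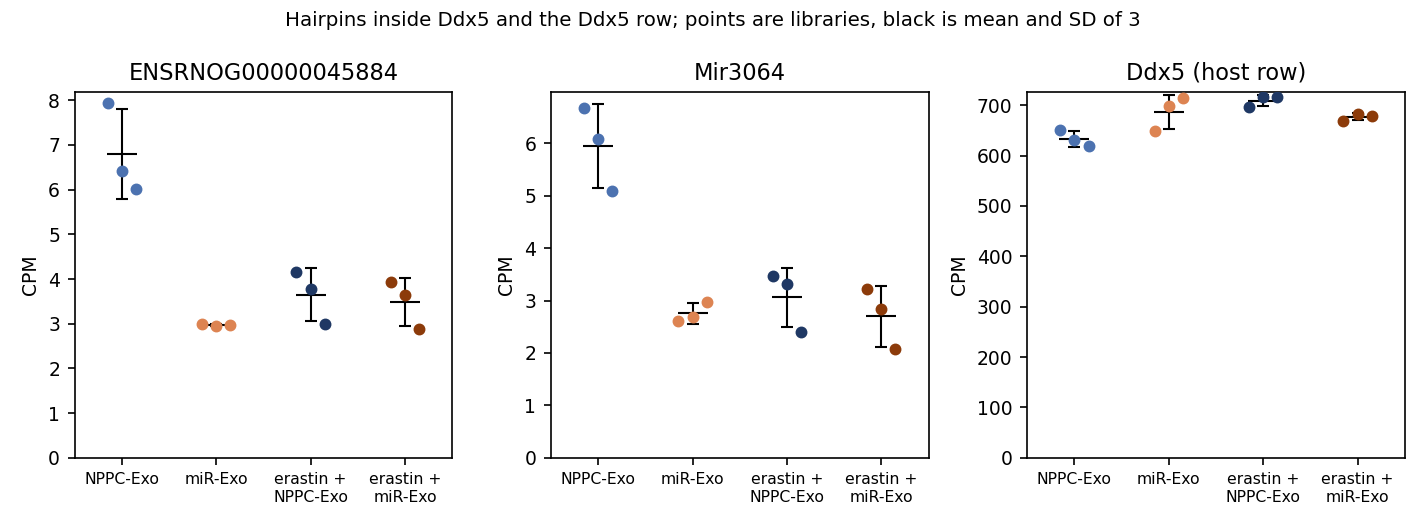
CPM of the hairpin rows ENSRNOG00000045884 and Mir3064 and of the Ddx5 row that encloses them, by group; points are libraries and black marks the mean and SD of 3. The NPPC-Exo libraries without erastin lie above all others for both hairpins, at 6.02 to 7.93 and 5.08 to 6.67 CPM, which is not seen for Ddx5.

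The other row lower with miR-Exo was AABR07065531.1, an unnamed hairpin. It stood at 5.53, 5.78 and 4.09 CPM with NPPC-Exo and at 2.33, 1.78 and 1.65 with miR-Exo, without overlap. With erastin it stood at 0.976, 1.04 and 0.892 CPM under NPPC-Exo and 0.859, 0.645 and 0.586 under miR-Exo, below every library without erastin. It fell by 1.42 ± 0.22 with miR-Exo (adjusted p = 0.00137), by 2.40 ± 0.23 with erastin under NPPC-Exo and by 1.46 ± 0.23 with erastin under miR-Exo. The long noncoding row AABR07065531.26, 5371 bp away on the same strand and picked after its values were seen, was lower in the same comparisons. Its log2 fold change was −1.06 ± 0.28 with miR-Exo, −2.21 ± 0.29 with erastin under NPPC-Exo and −2.06 ± 0.30 with erastin under miR-Exo. That row was also called lower with miR-Exo in the presence of erastin (−0.91 ± 0.30, adjusted p = 0.0327), where AABR07065531.1 was not called.

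With erastin present, the members lower with miR-Exo were Mir675 and AABR07027722.1. AABR07027722.1 stood at 2.18, 1.42 and 1.28 CPM with erastin under NPPC-Exo and at 0.651, 0.821 and 1.1 with erastin under miR-Exo, and fell by 0.92 ± 0.28 (adjusted p = 0.0222). The 2 groups did not overlap, but the call was lost without library 1 of erastin under NPPC-Exo or without library 1 or 2 of erastin under miR-Exo, with an adjusted p of up to 0.0928. Mir675 is given with the erastin results below.

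The question of the erastin comparison is how the cells' RNA answers to a ferroptosis inducer under each kind of exosome, and there hairpin rows were more often lower than higher. Under NPPC-Exo 2 of the 47 members rose and 13 fell, a median log2 fold change of −0.49. Of all genes tested 43.6% were called in this comparison, 21.5% higher and 22.1% lower, with a median of 0.02. Under miR-Exo 2 members rose and 10 fell, with a median of −0.33, where 49.1% of all genes were called, 24.7% higher and 24.4% lower, with a median of 0.03. The share of members called was thus below the background in both, the share lower a little above it under NPPC-Exo and below it under miR-Exo. Among the 32 members with 30 counts in each group, 2 rose and 8 fell under NPPC-Exo and 1 rose and 6 fell under miR-Exo. Of the 16 members with a rat microRNA name none rose and 9 fell under NPPC-Exo, and none rose and 5 fell under miR-Exo. Those at an unadjusted p under 0.05 numbered 10 and 7 of the 16, or 62.5% and 43.8%, beside 49.9% and 54.9% of all genes. These counts hold members kept mostly by their reads without erastin, such as Mir143, Mir145, Mir675, Mir21 and Mir27b. Their lower level with erastin is in part built into the choice. Of the 9 named members with 30 counts in each group, 4 fell under NPPC-Exo and 2 under miR-Exo. Scaling by library size alone moved the median of all genes to 0.30 and 0.33 and the share of higher among called genes from 49.3 to 77.8% and from 50.4 to 76.4%. Members called then numbered 6 higher and 11 lower under NPPC-Exo and 7 higher and 9 lower under miR-Exo.

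**Figure D3:**
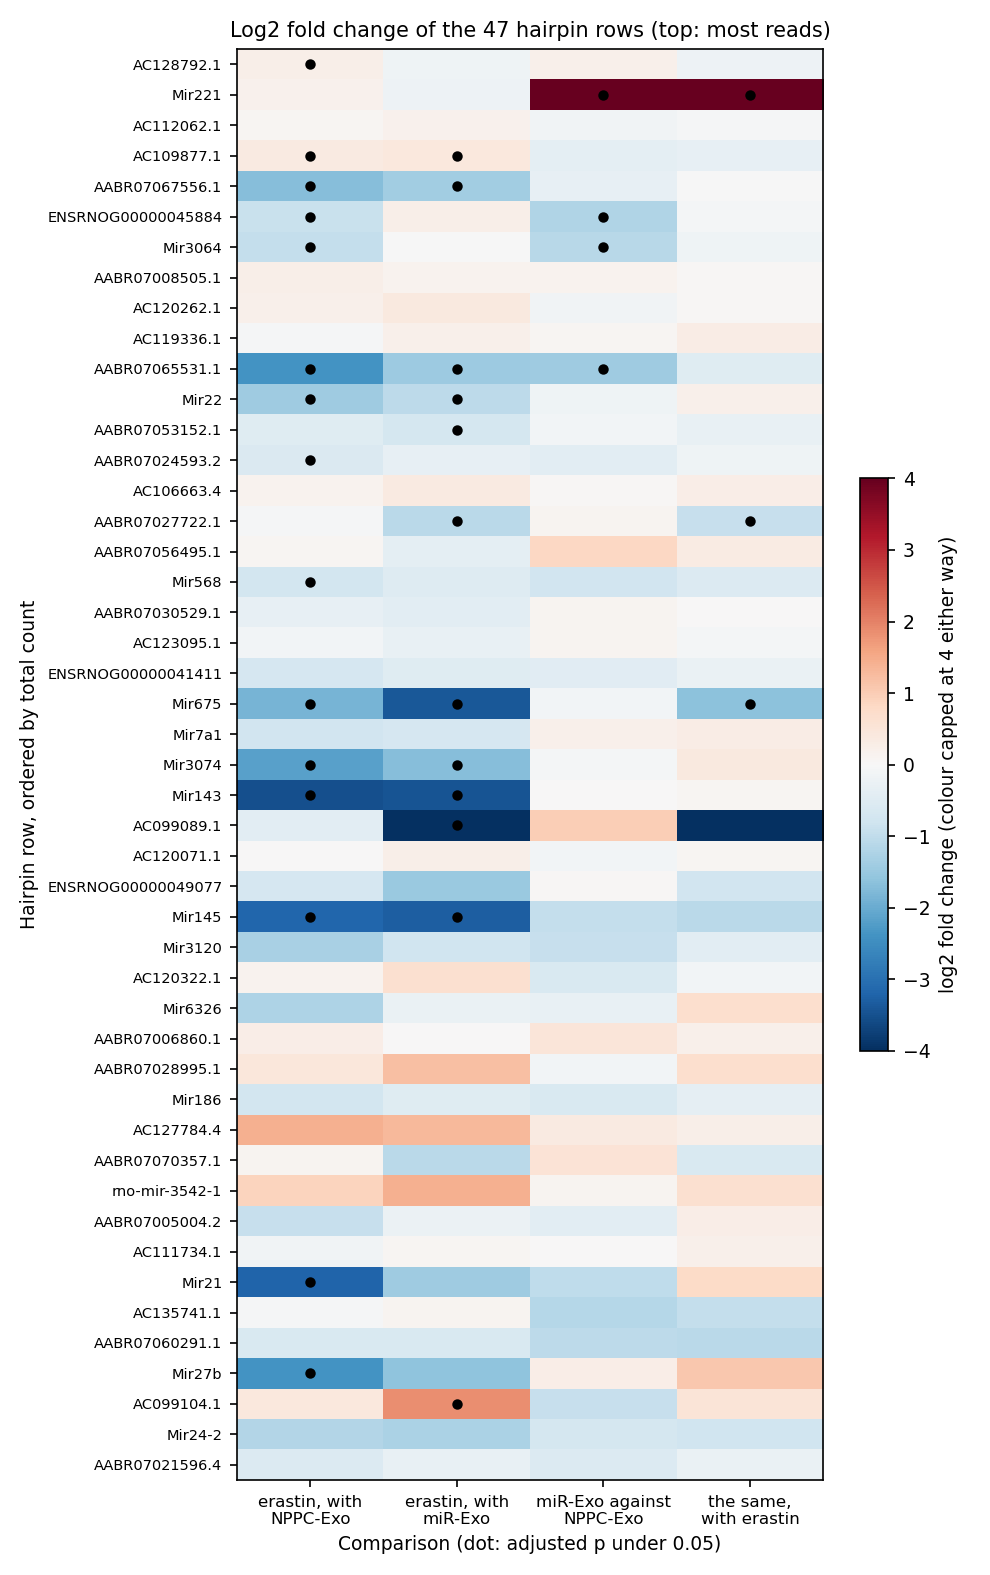
Log2 fold change of each of the 47 hairpin rows (rows, ordered by total count) in 4 comparisons (columns); red is higher, blue lower, and a dot marks an adjusted p under 0.05. Blue prevails in the erastin columns, with 13 and 10 members called lower, and Mir221 is the 1 member called higher by kind of exosome.

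Among members with a name, Mir143 had the largest fall under both kinds of exosome, and beside it fell Mir145. The hairpins lie 1278 bp apart on the same strand and are known in mammals to share a primary transcript in smooth muscle and other mesenchymal cells. Mir143 had 63, 49 and 41 counts with NPPC-Exo and 49, 56 and 65 with miR-Exo. With erastin it had 8, 5 and 2 under NPPC-Exo and 7, 6 and 4 under miR-Exo. Mir145 had 71, 50 and 41 counts with NPPC-Exo, 28, 26 and 38 with miR-Exo, 11, 5 and 4 with erastin under NPPC-Exo and 3, 4 and 3 with erastin under miR-Exo. For both hairpins every library with erastin lay far below every library without it. Both passed the minimum mostly by their reads without erastin, so their fall is in part built into the choice. Mir143 fell by 3.51 ± 0.55 under NPPC-Exo (adjusted p = 0.000165) and by 3.45 ± 0.55 under miR-Exo (adjusted p = 0.000158). Mir145 fell by 3.18 ± 0.58 (adjusted p = 0.000569) and by 3.31 ± 0.61 (adjusted p = 0.000574). By kind of exosome without erastin, the Mir145 libraries did not overlap and its log2 fold change of −0.94 ± 0.52 did not pass the test (adjusted p = 0.289), while Mir143 was at 0.03 ± 0.47.

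Mir675, which is cut from the noncoding RNA H19 in human and mouse, had 47, 79 and 62 counts with NPPC-Exo and 48, 72 and 71 with miR-Exo. With erastin it had 28, 15 and 16 counts under NPPC-Exo and 8, 6 and 6 under miR-Exo, so that the 4 groups formed 3 levels without overlap between them. Mir675 passed the minimum mostly by its reads without erastin, so its fall is in part built into the choice. It fell by 1.87 ± 0.43 with erastin under NPPC-Exo (adjusted p = 0.00293) and by 3.39 ± 0.47 under miR-Exo (adjusted p = 4.92e-05). Between the kinds of exosome with erastin it fell by 1.63 ± 0.47 (adjusted p = 0.0184), a call lost without library 1 of erastin under NPPC-Exo or library 2 of erastin under miR-Exo, with an adjusted p of up to 0.0748. The test of the difference between both erastin effects gave −1.52 ± 0.62 and did not pass (adjusted p = 0.127).

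Mir21, a microRNA raised in many tumours and fibrotic tissues, had 33, 22 and 18 counts with NPPC-Exo and 15, 9 and 15 with miR-Exo. With erastin it had 2, 2 and 5 counts under NPPC-Exo and 8, 1 and 7 under miR-Exo. Mir21 passed the minimum mostly by its reads without erastin, so its fall is in part built into the choice. It fell by 3.19 ± 0.82 with erastin under NPPC-Exo (adjusted p = 0.00633), while the value under miR-Exo was −1.41 ± 0.77 (adjusted p = 0.151). Both groups of each pair were without overlap, and the difference between the erastin effects was not called, at 1.78 ± 1.11 (adjusted p = 0.329). Vmp1, the protein-coding row that ends 535 bp from Mir21 on the same strand and was picked after its values were seen, was at −0.22 ± 0.06 under NPPC-Exo (adjusted p = 0.00721) and 0.12 ± 0.06 under miR-Exo (adjusted p = 0.105).

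Mir22, the named hairpin with the most counts after Mir221 and Mir3064, had 143, 156 and 165 counts with NPPC-Exo and 130, 138 and 185 with miR-Exo. With erastin it had 60, 70 and 73 counts under NPPC-Exo and 96, 86 and 61 under miR-Exo, below every library without erastin. It fell by 1.42 ± 0.21 under NPPC-Exo (adjusted p = 0.000105) and by 1.06 ± 0.21 under miR-Exo (adjusted p = 0.000943). The member Mir6326 lies 142 bp from it on the same strand and was called in no comparison. Tlcd2, a protein-coding row 3975 bp away on the same strand and also picked after its values were seen, was at −1.22 ± 0.20 and −1.17 ± 0.20 with erastin. It was also called lower with miR-Exo, at −0.68 ± 0.20 without erastin (adjusted p = 0.0453) and −0.63 ± 0.21 with it (adjusted p = 0.0333). Mir22 was not called in these.

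Mir3074 and Mir27b belong to a microRNA cluster with Mir23b, and Mir3074 is annotated on the strand opposite to the others, 382 bp from Mir27b. Whether the authors' counting used the strand is not given in the sources used here, so reads at Mir3074 cannot be told apart from reads of Mir24-1, which overlaps it. Mir3074 had 59, 53 and 36 counts with NPPC-Exo, 57, 40 and 57 with miR-Exo, 14, 9 and 15 with erastin under NPPC-Exo and 11, 22 and 19 with erastin under miR-Exo. All libraries with erastin were below all without it. Mir3074 fell by 2.16 ± 0.46 under NPPC-Exo (adjusted p = 0.00171) and by 1.72 ± 0.45 under miR-Exo (adjusted p = 0.00613). Mir27b had 15, 7 and 20 counts with NPPC-Exo, 14, 20 and 21 with miR-Exo, 2, 3 and 4 with erastin under NPPC-Exo and 5, 7 and 8 with erastin under miR-Exo. Mir27b passed the minimum mostly by its reads without erastin, so its fall is in part built into the choice. It fell by 2.40 ± 0.72 under NPPC-Exo (adjusted p = 0.0154). That call was lost without library 3 of NPPC-Exo or library 1 or 2 of erastin under NPPC-Exo, with an adjusted p of up to 0.0723. Under miR-Exo Mir27b was at −1.60 ± 0.67 (adjusted p = 0.0642). Mir23b, with 88 counts in all and so not a member, was at −2.23 ± 1.02 and −1.62 ± 0.98, neither called.

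**Figure D4:**
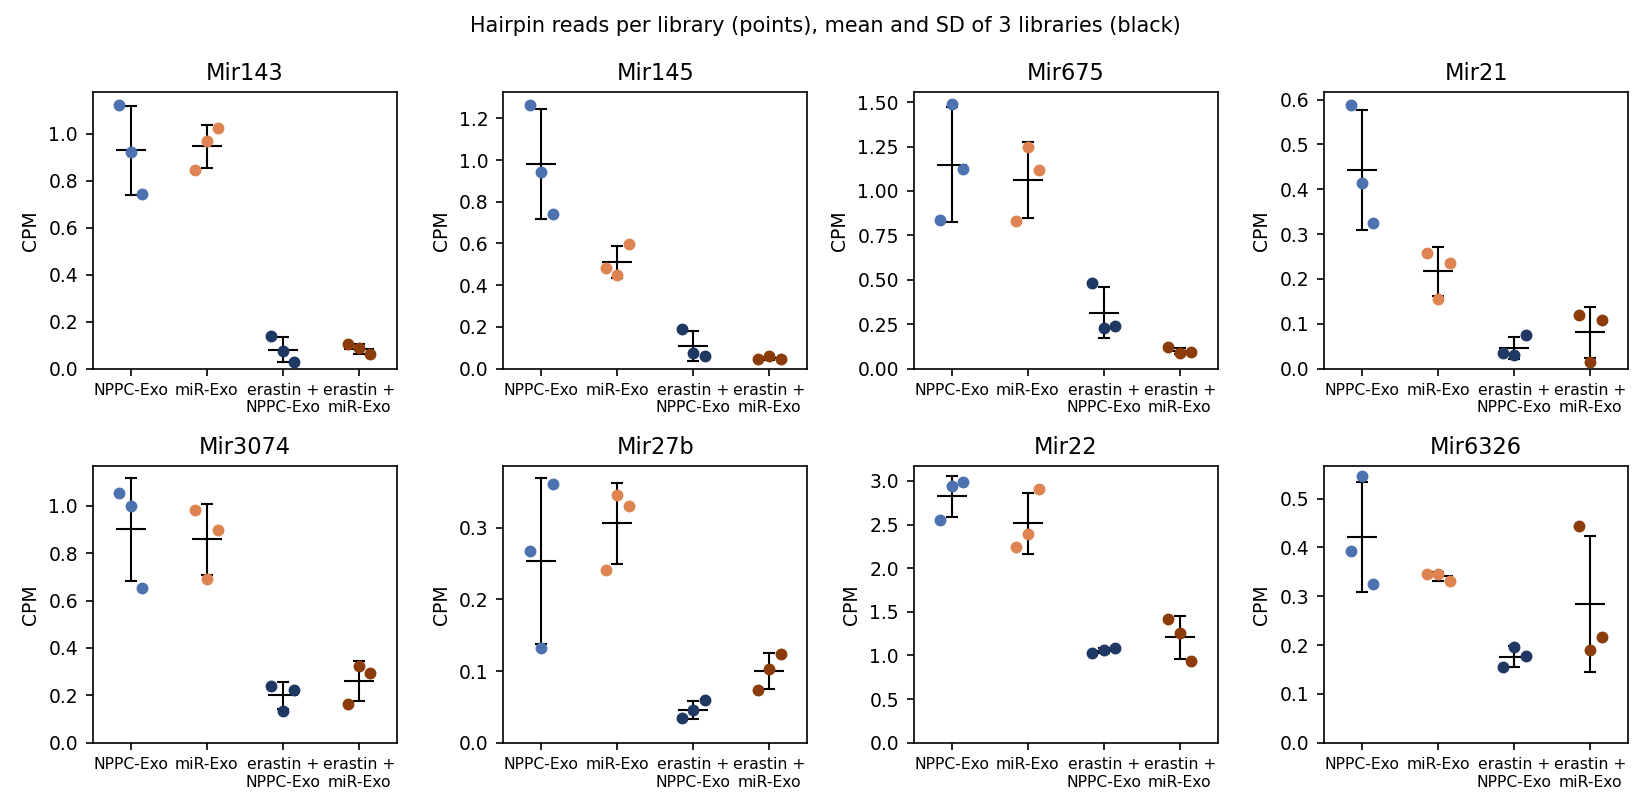
CPM of 8 hairpin rows by group; points are libraries and black marks the mean and SD of 3. Mir143, Mir145, Mir675, Mir3074 and Mir22 were called lower with erastin under both kinds of exosome, Mir21 and Mir27b under NPPC-Exo, and Mir6326 under neither.

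The last named member that fell was Mir568, with 99, 82 and 81 counts with NPPC-Exo, 55, 57 and 54 with miR-Exo, 46, 67 and 70 with erastin under NPPC-Exo and 40, 51 and 38 with erastin under miR-Exo. The NPPC-Exo libraries were above all others. It fell by 0.75 ± 0.26 with erastin under NPPC-Exo (adjusted p = 0.0346). The call was lost without library 1 or 2 of NPPC-Exo or without any of the libraries of erastin under NPPC-Exo, with an adjusted p of up to 0.116, and with library size alone (−0.46, adjusted p = 0.164). By kind of exosome without erastin Mir568 was at −0.78 ± 0.26 and not called (adjusted p = 0.0822). The long noncoding row AABR07072236.1, 477 bp away on the same strand and picked after its values were seen, was at −0.57 ± 0.15 and −0.58 ± 0.15 with erastin and at −0.84 ± 0.15 and −0.85 ± 0.15 with miR-Exo, called in all 4.

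Among the members without a name, AABR07067556.1 had the most counts of those that fell. It lies inside Col3a1, the gene of a fibrillar collagen, on the same strand. It had 422, 603 and 599 counts with NPPC-Exo, 453, 492 and 479 with miR-Exo, 162, 205 and 224 with erastin under NPPC-Exo and 197, 215 and 193 with erastin under miR-Exo. Libraries with and without erastin were far apart. It fell by 1.69 ± 0.16 under NPPC-Exo (adjusted p = 1.41e-06) and by 1.40 ± 0.16 under miR-Exo (adjusted p = 7.49e-06). Col3a1 fell by 1.53 ± 0.07 and 1.84 ± 0.07, so that hairpin and gene moved the same way under both kinds of exosome. The hairpin held 0.0429% as many counts as Col3a1.

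The smaller calls were AABR07024593.2, AABR07027722.1 and AABR07053152.1. AABR07024593.2 had 127, 101 and 146 counts with NPPC-Exo, 93, 87 and 108 with erastin under NPPC-Exo, 104, 92 and 105 with miR-Exo and 85, 108 and 76 with erastin under miR-Exo. It fell by 0.59 ± 0.21 under NPPC-Exo (adjusted p = 0.0396), a call lost without library 1 or 3 of NPPC-Exo, any library of erastin under NPPC-Exo or library 1 of erastin under miR-Exo (adjusted p of up to 0.139). AABR07027722.1 had 119, 101 and 104 counts with miR-Exo and 44, 56 and 71 with erastin under miR-Exo, without overlap, and fell there by 1.08 ± 0.28. Its NPPC-Exo libraries had 100, 79 and 98 counts, and those with erastin 127, 94 and 86. AABR07053152.1 had 104, 132 and 139 counts with miR-Exo and 104, 76 and 80 with erastin under miR-Exo, and 103, 136 and 131 with NPPC-Exo and 101, 99 and 107 with erastin under NPPC-Exo. It fell by 0.69 ± 0.22 under miR-Exo (adjusted p = 0.018), which was lost without library 2 of miR-Exo or library 2 of erastin under miR-Exo (adjusted p of up to 0.0633).

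The members that rose with erastin did so by little or had few reads. AC109877.1, which abuts Hnrnpa3 on the same strand, had 384, 525 and 488 counts with NPPC-Exo, 362, 404 and 409 with miR-Exo, 569, 800 and 744 with erastin under NPPC-Exo and 583, 589 and 593 with erastin under miR-Exo. It rose by 0.37 ± 0.14 under NPPC-Exo (adjusted p = 0.0434) and by 0.42 ± 0.14 under miR-Exo (adjusted p = 0.0197). In CPM, the NPPC-Exo libraries at 6.84, 9.88 and 8.83 overlapped those with erastin at 9.75, 12.1 and 11.1. The first call was lost without library 1 or 3 of NPPC-Exo, 2 or 3 of miR-Exo or 2 or 3 of erastin under NPPC-Exo (adjusted p of up to 0.164), and the second without library 1 or 3 of miR-Exo or 3 of erastin under miR-Exo (adjusted p of up to 0.0628). AC099104.1, inside the microtubule regulator gene Stmn1, had 7, 4 and 12 counts with NPPC-Exo, 3, 4 and 6 with miR-Exo, 10, 16 and 10 with erastin under NPPC-Exo and 18, 20 and 16 with erastin under miR-Exo. AC099104.1 passed the minimum mostly by its reads with erastin, so its rise is in part built into the choice. It rose by 1.87 ± 0.69 under miR-Exo (adjusted p = 0.0384), beside 1.15 ± 0.07 for Stmn1, and the call was lost without any 1 of the 12 libraries (adjusted p of 0.0513 to 0.139).

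The row with the most counts, AC128792.1, overlaps LOC100360087 on the same strand. It had 1455, 1405 and 1672 counts with NPPC-Exo, 1770, 1924 and 1991 with miR-Exo, 1778, 2211 and 2268 with erastin under NPPC-Exo and 1844, 1813 and 1957 with erastin under miR-Exo. Its levels were 25.9, 26.4 and 30.2 CPM with NPPC-Exo and 30.5, 33.4 and 33.7 with erastin under NPPC-Exo, and 30.5, 33.3 and 31.4 with miR-Exo and 27.3, 26.6 and 30.2 with erastin under miR-Exo. It rose by 0.24 ± 0.08 with erastin under NPPC-Exo (adjusted p = 0.0288), a call lost without library 1 or 2 of NPPC-Exo or 2 or 3 of erastin under NPPC-Exo (adjusted p of up to 0.0979), and under miR-Exo it was at −0.18 ± 0.08 (adjusted p = 0.0863).

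Of the 10 members with the largest totals, 4 were called in no comparison. AC112062.1 held 9082 counts although the row around it, the myosin gene Myo7b, held 139. It stood at 12, 12.3 and 12.9 CPM with NPPC-Exo, at 10.9, 10.9 and 11.8 with miR-Exo, at 13.5, 12.5 and 13.2 with erastin under NPPC-Exo and at 11.9, 13.5 and 12.4 with erastin under miR-Exo, which is an even level throughout. AABR07008505.1 held 2412 counts inside Pdzd2, whose row held 931. Its level was 2.67 to 3.07 CPM with NPPC-Exo, 2.89 to 3.67 with miR-Exo, 2.87 to 4.2 with erastin under NPPC-Exo and 2.93 to 4.32 with erastin under miR-Exo. AC120262.1 ranged from 1.9 to 2.92 CPM over the 12 libraries, and AC119336.1 from 1.88 to 3.64 CPM with overlap between all groups. Reads at these hairpin rows thus numbered more than those of an enclosing gene in 2 cases, AC112062.1 and AABR07008505.1. Whether some of these reads came from similar sequences elsewhere in the genome was not tested.

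A host row, a non-microRNA row that contains the hairpin on the same strand, was present for 16 of the 47 members, in 15 host rows. On the opposite strand AC120262.1 lay inside Zfp629, and ENSRNOG00000041411 inside Serf2. As strand use in counting is not given, reads at these hairpins cannot be told apart from reads of those genes. Of the 16 named members, 4 lay in a host and 12 did not. Under NPPC-Exo 3 of the 16 members in hosts were called with erastin, and 12 of the other 31, beside 43.6% of all genes. Under miR-Exo 2 of the 16 and 10 of the 31 were called, beside 49.1% of all genes. Hairpin and host were both called in the same direction in 1 of 16 pairs under NPPC-Exo and 2 under miR-Exo, and in opposite directions in 2 and 0. The host alone was called in 4 and 6 pairs and neither in 9 and 8. With miR-Exo against NPPC-Exo without erastin, the hairpin alone was called in 2 pairs, both in Ddx5, the host alone in 2, and neither in 12. Hosts have far more counts than their hairpins in most pairs, so a call in the host alone does not show that the hairpin differed from it.

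Some hairpin rows differed widely between libraries of the same group, and are named after their values were seen. AABR07056495.1, inside the chaperone gene Hsp90b1, had exactly 1 count in 6 libraries and 94 to 166 counts in the other 6. The deposited FPKM was 0 to 0.01 in the libraries with 1 count, so that count may stand for less than 1 read. The counts were 1, 1 and 146 with NPPC-Exo, 141, 1 and 144 with miR-Exo, 166, 1 and 1 with erastin under NPPC-Exo and 149, 94 and 1 with erastin under miR-Exo. High and low libraries occurred in all 4 groups, and no comparison was called, with an SE of 1.74 to 2.50 on the log2 scale. Hsp90b1 itself changed by −0.21 to 0.12 in the pairwise comparisons. AC099089.1 had 77, 6 and 0 counts with NPPC-Exo, 108, 41 and 26 with miR-Exo, 8, 32 and 33 with erastin under NPPC-Exo and 0, 4 and 0 with erastin under miR-Exo. It was called lower with erastin under miR-Exo (−5.51 ± 1.59, adjusted p = 0.0112), a fitted value that rests on 4 counts in the lower group, and libraries of the NPPC-Exo group ran from 0 to 77 counts. AC099089.1 passed the minimum by its reads in the other groups, so this fall is in part built into the choice. The row overlaps Trim17 on the opposite strand. rno-mir-3542-1 had 16, 1 and 2 counts with NPPC-Exo, 13, 1 and 8 with miR-Exo, 17, 11 and 12 with erastin under NPPC-Exo and 24, 15 and 27 with erastin under miR-Exo, and was not called.

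**Figure D5:**
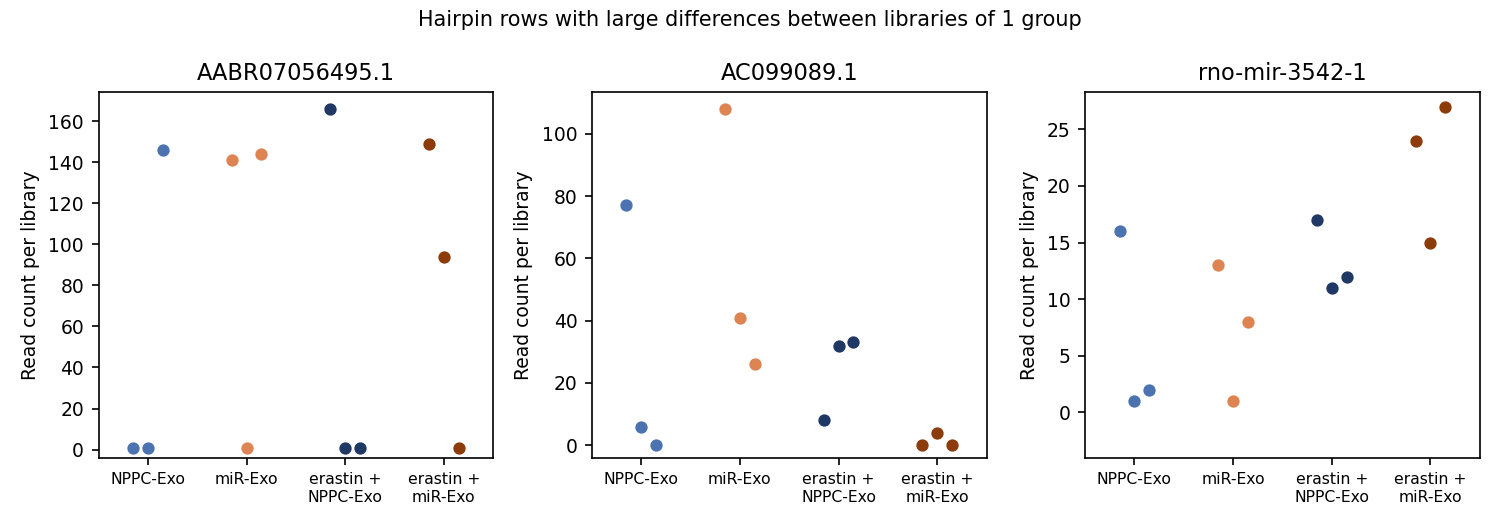
Read counts of 3 hairpin rows in each library, 3 points per group. AABR07056495.1 is at 1 count or at 94 to 166 counts in every group, and AC099089.1 runs from 0 to 77 within the NPPC-Exo group.

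The remaining members were called in no comparison and stand outside the 10 largest totals. They number 23, with totals from 122 to 1114 and group means from 0.617 to 36.6 FPKM. Those with a rat microRNA name are Mir7a1, inside Hnrnpk, Mir3120, inside Dnm3, Mir186, inside Zranb2, and Mir6326, Mir24-2 and rno-mir-3542-1. Mir3120 overlaps Mir214 on the opposite strand in RefSeq by 106 bp, so its reads have the same limit as those of Mir3074. The others are AC106663.4, AABR07056495.1, AABR07030529.1, AC123095.1, ENSRNOG00000041411, AC120071.1, ENSRNOG00000049077, AC120322.1, AABR07006860.1, AABR07028995.1, AC127784.4, AABR07070357.1, AABR07005004.2, AC111734.1, AC135741.1, AABR07060291.1 and AABR07021596.4. Their log2 fold changes ran from −1.29 to 1.42 with erastin under NPPC-Exo and from −1.48 to 1.42 under miR-Exo, and from −1.13 to 0.82 and −1.07 to 0.68 by kind of exosome. The smallest adjusted p among them was 0.0541.

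In the interaction test, which asks whether the erastin effect differed between the kinds of exosome, 3 members were called, 2 higher and 1 lower, where 12.8% of all genes were called, 5.81% higher and 7.01% lower. ENSRNOG00000045884 was at 1.13 ± 0.24 (adjusted p = 0.0107) and Mir3064 at 0.93 ± 0.28 (adjusted p = 0.0468), both in Ddx5. AC128792.1 was at −0.42 ± 0.11 (adjusted p = 0.0315). The number called was 1, and ENSRNOG00000045884 the member left, when library 2 of NPPC-Exo, 2 or 3 of miR-Exo, 2 or 3 of erastin under NPPC-Exo or 1 or 2 of erastin under miR-Exo was left out.

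Genes that make or act with microRNAs were also measured, as a list of 31 symbols with 27 tested. With erastin 12 of the 27 rose and 2 fell under NPPC-Exo (median log2 fold change 0.20, all genes 0.02), and 15 rose and 0 fell under miR-Exo (median 0.21, all genes 0.03), beside 43.6% and 49.1% of all genes called. At an unadjusted p under 0.05 there were 16 and 17 of the 27, beside 49.9% and 54.9% of all genes. The number called in either direction was thus near the background in both. By direction, 21.5% and 24.7% of all genes were called higher and 22.1% and 24.4% lower. Rises were thus more frequent in the list than among all genes and falls less frequent, a difference that was not tested. Zc3h12a, which encodes the ribonuclease Regnase-1, known in human to cut microRNA hairpin loops, had the smallest adjusted p in both. It stood at 13.4, 15.2 and 15.2 CPM with NPPC-Exo, 11.7, 15 and 16.3 with miR-Exo, 92.6, 102 and 96.3 with erastin under NPPC-Exo and 113, 108 and 125 with erastin under miR-Exo. It rose by 2.73 ± 0.11 (adjusted p = 4.1e-10) and 3.00 ± 0.11 (adjusted p = 1.47e-10), and its libraries with erastin were far above those without. Hsp90aa1, a chaperone used in Argonaute loading, rose by 0.61 ± 0.05 and 0.85 ± 0.05, and Hnrnpa1, an RNA-binding protein that assists the cutting of some hairpins, by 0.68 ± 0.06 and 0.85 ± 0.06. Srsf3, a splicing factor that binds hairpin flanks, rose by 0.55 ± 0.05 under NPPC-Exo, and Hspa8, another chaperone, by 0.69 ± 0.06 under miR-Exo. Under library size alone these rises gain from the shift of all genes given above.

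By kind of exosome without erastin, 2 of the 27 were higher with miR-Exo and 4 lower (median −0.03), beside 10.7% of all genes called. Adar, an RNA-editing enzyme, was at −0.53 ± 0.08 (adjusted p = 0.000815), Drosha at −0.27 ± 0.05 (adjusted p = 0.00689), the helicase gene Ddx17 at −0.21 ± 0.05 (adjusted p = 0.0155) and Hspa8 at 0.23 ± 0.06 (adjusted p = 0.0171). Drosha stood at 68.4, 70.2 and 72.1 CPM with NPPC-Exo and at 61.1, 54.5 and 58.9 with miR-Exo, without overlap. With erastin 4 were higher and 5 lower (median −0.03), beside 31.3% of all genes. Among them were Hspa8 at 0.58 ± 0.06, Hsp90aa1 at 0.44 ± 0.05, Adar at −0.43 ± 0.08 and Ran, the GTPase of hairpin export, at −0.48 ± 0.10. In the interaction, where 12.8% of all genes were called, 2 of the 27 were called higher, Hspa8 at 0.34 ± 0.08 and Ago3, an Argonaute, at 0.57 ± 0.14, and Ran was called lower at −0.72 ± 0.15, while Hsp90aa1 at 0.24 ± 0.07 was not called (adjusted p = 0.0533).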

How the data were processed

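RNA of 12 libraries, 3 in each of 4 groups, was analysed from the table the authors deposited. Per the labels, RNA was taken with TRIzol and made into strand-marked libraries. The deposited counts are whole numbers per gene, and the deposited FPKM are, by their name, per kilobase and library size. At low counts they were not in proportion. Mir199a2 had 1 count in each library at 0 to 0.01 FPKM. AABR07056495.1 had 1 count at 0 FPKM in library 1 of NPPC-Exo and 146 counts at 16.7 FPKM in library 3. A count of 1 may thus stand for less than 1 read, which was not tested. Per the submitters' processing notes StringTie and mRatBN7.2 were used, with no version. The aligner, counting tool, filters and strand use in counting were not given in the sources used here. Coordinates on chromosome 1 reach 282702424, so the build is uncertain and only distances between rows are printed.

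Of the 21071 genes, 15650 passed the filterByExpr function of edgeR, all 47 members among them. Scaling was by TMM (trimmed mean of M-values; factors from 0.877 to 1.15), and counts were fitted with edgeR's quasi-likelihood test with a mean per group and a spread shared by all 12 libraries. R 4.3.3, edgeR 4.0.16, limma 3.58.1 and DESeq2 1.42.0 were used, and the script was tested on simulated data. CPM use the scaled totals. Rose, fell and called mean an adjusted p under 0.05 (Benjamini-Hochberg over all genes tested). FPKM values were used to order rows by length-corrected level, to give ranges and to look at low counts. Of counts from 1 to 20, 57.3% were even over all genes and 45.4% in the members, and halved counts were among the alternatives. These were also other scaling, no filter, DESeq2, only the groups compared, a replicate block, and each library left out. No library pair was a duplicate. Same-numbered libraries of NPPC-Exo and miR-Exo without erastin correlated in their deviations from the group means in all 3 pairs (r from 0.118 to 0.4). In the other pairs of groups at most 1 of 3 exceeded 0.1. Library 3 of NPPC-Exo correlated more with library 2 of miR-Exo (r = 0.205) than with library 3 (r = 0.118). The labels state no pairing, and these values do not settle if the numbers pair the samples.

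The members, lists and tests were chosen with earlier results of these data known. All members are named, with values per library for Mir221, called members and the largest totals, host rows, microRNA rows within 10 kb, Mir222, the rows next to the minimum of 120, and the 4 processing genes with the smallest adjusted p per comparison. Other genes are said to be chosen after their values were seen. Mature and seed sequences are RefSeq's, on GRCr8.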

Additional observations from a re-analysis of the deposited data

Results flagged for a closer look

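Hairpin rows for which the test of the interaction passed, so that the erastin effect differed between NPPC-Exo and miR-Exo, were AC128792.1, ENSRNOG00000045884 and Mir3064. The difference in log2 fold change, miR-Exo minus NPPC-Exo, was −0.419 for AC128792.1, where erastin gave 0.24 under NPPC-Exo and −0.18 under miR-Exo. It was 1.13 for ENSRNOG00000045884, with −0.90 and 0.23, and 0.931 for Mir3064, with −0.96 and −0.03. Without 1 library, the adjusted p of the interaction reached 0.0804 for AC128792.1 (lost for 8 of the 12 libraries) and 0.133 for Mir3064 (lost for 10 of 12).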

How the results depend on the processing

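Every direction among the 37 called member results held in all settings that gave a value for it, and 25 of these calls held in all such settings. Without 1 library 12 calls were lost at least once, and 7 in at least 1 other setting. The 1 sign change was that of Mir221 with erastin under miR-Exo, not called to begin with, at 0.11 (adjusted p = 0.258) with library size alone. That value passed the test with only the groups compared (−0.21, adjusted p = 0.0425). DESeq2's Wald test called 5 members for miR-Exo against NPPC-Exo with erastin, against 3, and the cause was not tested. Leaving out 1 library gave 10 to 15 members called for erastin under NPPC-Exo, 10 to 12 under miR-Exo, 4 to 6 for the kind of exosome without erastin, 1 to 5 with erastin, and 1 to 4 for the interaction. The lowest with erastin, 1, came without library 2 of erastin with miR-Exo, and the highest, 5, without library 1 or 3 of NPPC-Exo. All genes called then numbered 970 to 1854 for the kind without erastin, against 1669, and 1205 to 2419 for the interaction, against 2006. Over all groups, 4 of 18 same-numbered pairs correlated over 0.1, and 3 of these were NPPC-Exo with miR-Exo without erastin. There the replicate block changed no member call and gave 1560 genes, against 1669. With the replicate block 13 members were called for erastin under NPPC-Exo, 11 under miR-Exo, 4 and 4 by kind of exosome and 3 for the interaction; 3 single calls were lost, Mir568 (adjusted p = 0.0534), AABR07024593.2 (0.0596) and AC099104.1 (0.0643). With halved counts Mir21, Mir27b and AC099104.1 gave no value, and the interaction was not run on fewer groups. Hairpins with under 10 counts per library in a group, such as Mir143, Mir145 and Mir21 with erastin, are limited by depth.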
